A study of Mus musculus with 12 samples.

Results

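Signal of 4 genes was followed across the groups of this series: Fundc2, Hook1, Atrnl1 and Mrgpra1. They were chosen by the measured signal itself, because both mutant groups lay above wild type (WT), so their differences from WT are given as a description and carry no test. The 4 genes were taken from 19938 genes that have a transcript cluster (the probe set of the array for a gene) with a single gene symbol, and each had 1 such cluster. Pro-B cells were purified from the marrow of mice 1 month old kept specific pathogen-free, and their RNA was hybridised to 12 arrays of the type Affymetrix Mouse Gene 1.0 ST, which report a log2 signal. The groups were Cd72+/-;Pax5+/- (heterozygous for both genes), Pax5+/- (heterozygous for Pax5 alone) and WT, with 4 arrays each. In the titles the WT cells are named pro-B cells, and the mutant cells preleukemic precursor B-cells. The labels do not say which part of either gene was lost, how the alleles were made, or whether each array stands for another mouse. A p-value here therefore reflects array-to-array spread alone, and that spread may be technical. The number of arrays limits the precision.

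Pro-B cells are the marrow precursors in which the immunoglobulin heavy chain is rearranged, and Pax5 is the transcription factor that commits them to the B lineage. None of the 4 genes is a standard marker of this stage. Fundc2 encodes a FUN14-domain protein of the outer mitochondrial membrane and is the paralog of Fundc1, a receptor for mitophagy. Hook1 encodes a coiled-coil adaptor that links cargo to microtubules and the dynein motor, and its loss in the mouse azh mutant distorts the sperm head. Atrnl1 encodes a membrane protein related to attractin, which in mouse acts with the melanocortin receptors in pigmentation. Mrgpra1 encodes a Mas-related G-protein-coupled receptor described in mouse sensory neurons.

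In the RefSeq table of assembly GRCm38.p6, Fundc2 lies on chromosome X, Hook1 on chromosome 4, Atrnl1 on chromosome 19 and Mrgpra1 on chromosome 7. The sources used here name no genome build of the authors, and the positions are RefSeq's and not the array's. The promoters of the 4 genes are shown because the genes were high in the same groups. Each window of the RefSeq table held 250 bases before and 50 after a start site, and only the stretch before the first annotated base of the gene is printed, 5′ to 3′ on the strand of the gene. Capitals mark the CCAAT box and the GC box GGGCGG, found on either strand. Fundc2 (chrX:75382149-75382398, plus strand), Hook1 (chr4:95967129-95967180, plus strand), Atrnl1 (chr19:57610784-57610959, plus strand) and Mrgpra1 (chr7:47354241-47354490, minus strand) read:
Fundc2: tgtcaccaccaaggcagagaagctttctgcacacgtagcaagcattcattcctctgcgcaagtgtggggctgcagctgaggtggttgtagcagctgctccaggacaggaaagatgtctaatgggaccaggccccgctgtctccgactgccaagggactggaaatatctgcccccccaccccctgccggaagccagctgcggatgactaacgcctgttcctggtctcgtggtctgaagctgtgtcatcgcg
Hook1: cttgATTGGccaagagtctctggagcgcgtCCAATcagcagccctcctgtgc
Atrnl1: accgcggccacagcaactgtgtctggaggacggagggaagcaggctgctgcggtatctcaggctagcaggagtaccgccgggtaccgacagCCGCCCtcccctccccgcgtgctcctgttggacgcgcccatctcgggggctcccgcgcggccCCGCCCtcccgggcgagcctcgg
Mrgpra1: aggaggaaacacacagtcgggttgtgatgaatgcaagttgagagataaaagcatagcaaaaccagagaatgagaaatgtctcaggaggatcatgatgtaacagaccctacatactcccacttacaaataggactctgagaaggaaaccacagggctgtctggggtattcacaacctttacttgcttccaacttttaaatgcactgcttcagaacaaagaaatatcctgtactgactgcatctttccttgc

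Motifs differed between the promoters. Over the whole windows of 300 bases, Hook1 held 2 CCAAT boxes, 3 GC boxes and 1 E-box CAGGTG, and Atrnl1 held 3 GC boxes. The printed stretches contain both CCAAT boxes of Hook1 and 2 of the 3 GC boxes of Atrnl1. None of these motifs, nor TATAAA, nor the palindromic EBF1 motif, was found in the windows of Fundc2 and Mrgpra1. Of 32851 RefSeq windows of this length, 37.4% held CCAAT, 35.7% GGGCGG, 20.2% CAGGTG, 13.6% TATAAA and 0.904% the EBF1 motif, on either strand. The matches searched did not overlap one another. A match describes the letters of the window and no binding.

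Some facts of the series bear on every value below. The 12 arrays had median log2 signals of 6.91 to 7.005. The surrogate light-chain genes Vpreb1 and Igll1 had high group means, of 12.31 to 12.67 and 12.79 to 13.02. These levels do not show that the groups were at the same stage. In WT, the precursor genes Rag2 and Il7r ranged over 8.74 to 10.25 and 11.07 to 12.47. Pax5 averaged 11.21, 10.97 and 11.57 in Cd72+/-;Pax5+/-, Pax5+/- and WT. Cd72 averaged 7.51, 10.19 and 8.90 in the same order, so its level in Pax5+/- lay above WT. Xist, transcribed from the inactive X chromosome of female cells, averaged 11.80 in Cd72+/-;Pax5+/-, 5.18 in Pax5+/- and 5.23 in WT, and the Y-linked gene Uty averaged 5.03, 9.37 and 9.33. Genotype and these sex-linked signals cannot be told apart in comparisons with Cd72+/-;Pax5+/-, for autosomal genes as well as for the X-linked Fundc2. WT arrays fell into close pairs, samples 5 and 7 and samples 6 and 8, whose cluster values differed with an SD of 0.113 and 0.123, against 0.261 to 0.27 between other WT arrays. The closest pairs stood out less in the mutant groups. They were samples 9 and 10 (SD 0.125) and 11 and 12 (SD 0.128) in Cd72+/-;Pax5+/-, against 0.132 to 0.187 between its other arrays, and samples 1 and 3 (SD 0.179) and 2 and 4 (SD 0.13) in Pax5+/-, against 0.192 to 0.276. The labels do not say whether a pair repeats a sample, and the setting with close pairs averaged treats all 6 pairs alike. It fits 6 values in place of 12, so a call can end there through lost precision alone. In bulk RNA, fewer cells of a type and less RNA per cell cannot be told apart.

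Fundc2 (cluster 10600504) showed the largest gap from WT. Its log2 signal was 8.16, 8.18, 8.34 and 8.55 in Cd72+/-;Pax5+/- samples 9 to 12, 8.92, 8.27, 8.43 and 8.48 in Pax5+/- samples 1 to 4, and 4.90, 5.14, 5.08 and 5.57 in WT samples 5 to 8. Every mutant array lay above every WT array, and the mutant groups overlapped each other. The group means, in the order of these values, were 8.31 ± 0.181, 8.53 ± 0.278 and 5.17 ± 0.284 (SD, n = 4 each). The difference from WT was 3.14 in Cd72+/-;Pax5+/- (8.79-fold) and 3.35 in Pax5+/- (10.2-fold).

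Hook1 (cluster 10506004) was high by a similar amount in both mutant groups. Its log2 signal was 8.68, 8.65, 8.80 and 8.90 in Cd72+/-;Pax5+/- samples 9 to 12, 8.63, 8.47, 8.57 and 8.48 in Pax5+/- samples 1 to 4, and 6.17, 6.06, 5.92 and 5.86 in WT samples 5 to 8. No group overlapped another, and Hook1 was the only one of the 4 genes with its highest mean in Cd72+/-;Pax5+/-. In the same order the group means were 8.76 ± 0.115, 8.54 ± 0.0763 and 6.00 ± 0.14 (SD, n = 4 each). The difference from WT was 2.76 in Cd72+/-;Pax5+/- (6.75-fold) and 2.54 in Pax5+/- (5.8-fold).

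Atrnl1 (cluster 10464251) was the gene whose mutant levels were furthest apart. Its log2 signal was 7.76, 7.79, 7.92 and 7.88 in Cd72+/-;Pax5+/- samples 9 to 12, 8.53, 8.65, 8.41 and 8.46 in Pax5+/- samples 1 to 4, and 5.76, 5.84, 5.97 and 5.95 in WT samples 5 to 8. The arrays formed a ladder without overlap, with Pax5+/- highest, Cd72+/-;Pax5+/- between and WT lowest. In the order of these values the group means were 7.84 ± 0.075, 8.51 ± 0.104 and 5.88 ± 0.0983 (SD, n = 4 each). The difference from WT was 1.96 in Cd72+/-;Pax5+/- (3.88-fold) and 2.63 in Pax5+/- (6.2-fold).

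Mrgpra1 (cluster 10563709) already had a varying signal in WT. Its log2 signal was 11.27, 11.38, 11.46 and 11.44 in Cd72+/-;Pax5+/- samples 9 to 12, 11.75, 11.85, 11.93 and 12.04 in Pax5+/- samples 1 to 4, and 9.45, 8.50, 9.47 and 8.51 in WT samples 5 to 8. The groups did not overlap, and the WT arrays were divided exactly as the close pairs, with samples 5 and 7 high and samples 6 and 8 low. Group means in that order were 11.39 ± 0.0854, 11.89 ± 0.123 and 8.98 ± 0.551 (SD, n = 4 each). The difference from WT was 2.41 in Cd72+/-;Pax5+/- (5.3-fold) and 2.91 in Pax5+/- (7.52-fold). Against WT samples 5 and 7 alone these differences were 1.93 and 2.43 in the same order, and against WT samples 6 and 8 alone 2.88 and 3.39. In WT, Fundc2 was also ordered by the pairs, with samples 5 and 7 at 4.90 and 5.08 and samples 6 and 8 at 5.14 and 5.57, while the pairs of Hook1 and of Atrnl1 overlapped.

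**Figure D1:**
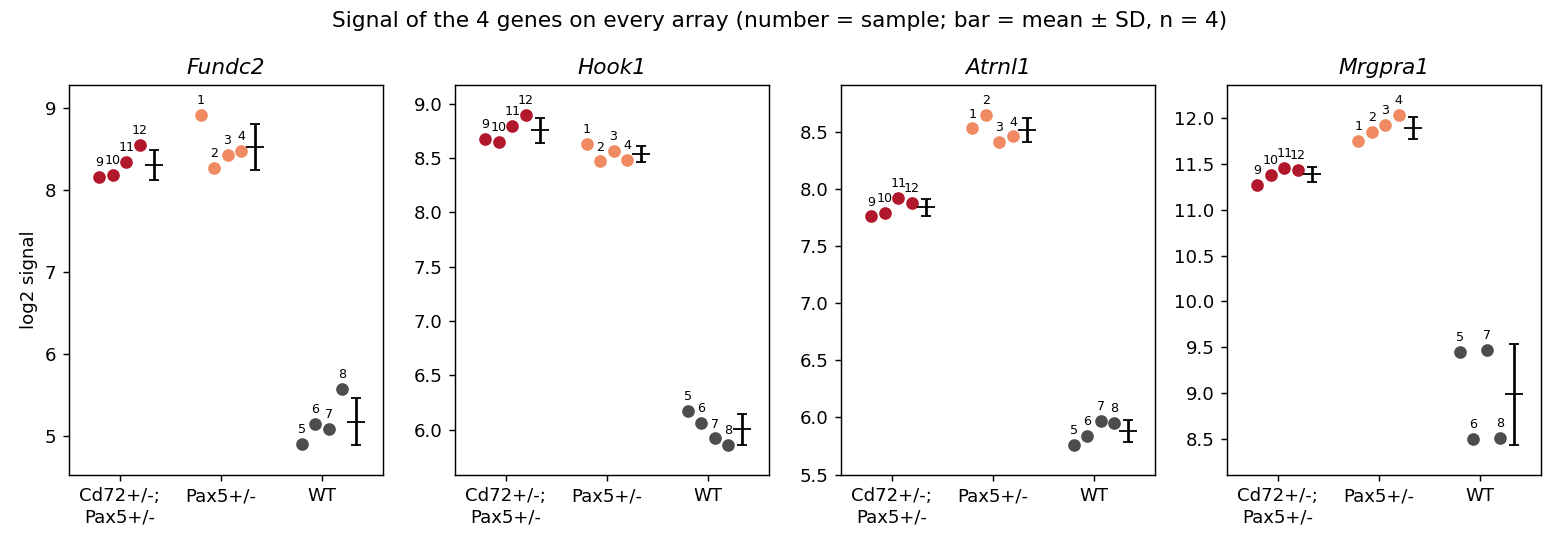
Log2 signal of Fundc2, Hook1, Atrnl1 and Mrgpra1 (vertical axes, 1 panel a gene, each with its own scale) on every array of Cd72+/-;Pax5+/-, Pax5+/- and WT, with the sample number over each point and bars for the mean ± SD of 4 arrays. All 8 mutant arrays lie above the 4 WT arrays in each panel, and the WT arrays of Mrgpra1 lie in pairs near 9.45 and 8.50.

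That both mutant groups lay above WT is how the 4 genes were picked. The values do not show that the genes were off in WT, since no detection calls were used here and Mrgpra1 differed between WT arrays. Among 19938 genes, 414 (2.08%) had all 8 mutant arrays above all 4 WT arrays, a count in which both comparisons share the WT arrays and from which nothing is read for genes chosen in this way. Of all clusters, 14.8% had groups that did not overlap in Cd72+/-;Pax5+/- against WT and 10.7% in Pax5+/- against WT. At least 2-fold higher in both mutant groups were 31 genes. Ranked by the smaller of the differences from WT, Fundc2 had rank 1, Hook1 rank 4, Mrgpra1 rank 5 and Atrnl1 rank 8. The other genes of the first 10 were the chemokine Ccl3 (2.83), Cibar1 (2.57), the collagenase Mmp13 (2.06), the zinc-finger gene Zfp507 (2.04), the lysosomal transporter Mfsd1 (1.80) and the coagulation factor gene F8 (1.78), where each value is the smaller log2 difference. The genes chosen were therefore not the only ones of this kind.

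The contrast between the mutant groups was not used to choose the genes. These groups also differed in the sex-linked signals of Xist and Uty. The contrast therefore cannot assign a difference in any of the 4 genes to the added loss of a Cd72 copy. It was tested with limma over 23410 clusters that carry a gene symbol, of which 2292 (9.79%) passed at an adjusted p under 0.05 (4.44% higher and 5.35% lower), and 4331 (18.5%) had groups that did not overlap. Atrnl1 was lower in Cd72+/-;Pax5+/- than in Pax5+/- by a log2 difference of -0.68 (SE 0.0659, 95% interval -0.82 to -0.53, limma adjusted p = 1.98e-05, 1.6-fold). It was the only one of the 4 genes that passed, and it passed in each of 25 alternatives (adjusted p = 1.14e-05 to 0.0208).

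Mrgpra1 differed by -0.51 (SE 0.203, 95% interval -0.95 to -0.06) between Cd72+/-;Pax5+/- and Pax5+/- and did not pass (limma adjusted p = 0.157). The spread of its WT arrays entered that error, and with only the mutant groups in the fit the same difference passed (limma adjusted p = 0.000832). Hook1 differed by 0.22 (SE 0.0766, 95% interval 0.05 to 0.39) and did not pass (limma adjusted p = 0.0997). Fundc2 differed by -0.22 (SE 0.156, 95% interval -0.56 to 0.12, limma adjusted p = 0.477), an interval that holds differences in either direction. In exact two-sided permutation tests of 4 against 4 arrays, Hook1, Atrnl1 and Mrgpra1 gave p = 0.0286, the smallest possible, and Fundc2 gave p = 0.257. These permutation p-values are unadjusted and treat every array as independent, which the close pairs may not be. The arrays of Hook1, Atrnl1 and Mrgpra1 did not overlap between the mutant groups, as in 18.5% of all clusters. The smallest possible p restates this. With the close pairs averaged, Atrnl1 still passed (limma adjusted p = 0.0208), and 420 clusters passed in all.

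**Figure D2:**
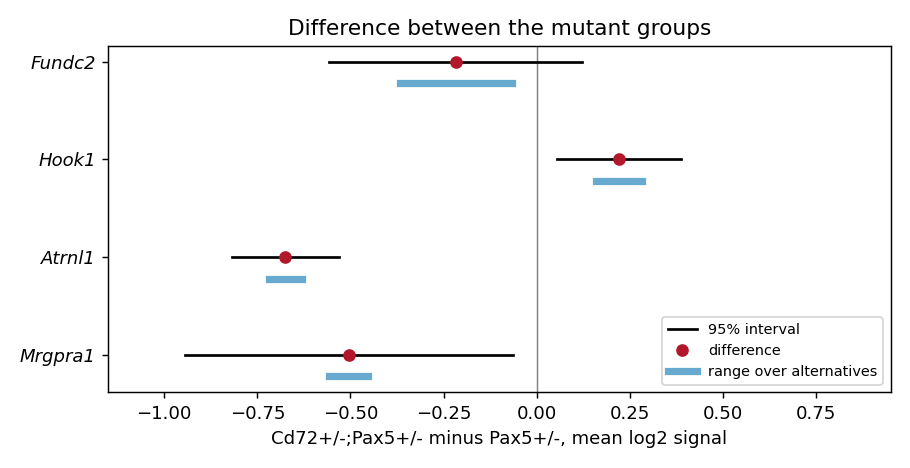
Difference in mean log2 signal, Cd72+/-;Pax5+/- minus Pax5+/- (horizontal axis), for the 4 genes, with the 95% interval of the limma fit as a black line and the range over 25 alternatives as a blue bar. Atrnl1 lies at -0.68, furthest from 0, and only the interval of Fundc2 holds 0.

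Chromosomal neighbours were examined because they were not part of the choice: the 4 nearest genes on each side in RefSeq order with a cluster of their own. In all, 7.78% of clusters passed in Cd72+/-;Pax5+/- against WT (4.12% higher, 3.66% lower) and 7.47% in Pax5+/- against WT (4.28% higher, 3.2% lower). Of the 8 neighbours of Fundc2, F8, the gene of coagulation factor VIII and its nearest neighbour on one side, rose in both mutant groups. F8 read 8.35 to 8.56 in Cd72+/-;Pax5+/-, 8.63 to 8.87 in Pax5+/- and 6.49 to 6.77 in WT. It was higher than WT by 1.78 in Cd72+/-;Pax5+/- (SE 0.0728, limma adjusted p = 8.61e-09) and by 2.05 in Pax5+/- (limma adjusted p = 3.03e-09), and both calls held with the close pairs averaged. On the other side Brcc3, a deubiquitinase subunit, differed by -0.10 and -0.03 in the same order and did not pass. Pls3, an X-linked actin-bundling protein gene, fell by 1.62 in Cd72+/-;Pax5+/- against WT (limma adjusted p = 4.25e-05), a call that ended with the close pairs averaged (adjusted p = 0.0626). The other 6 neighbours of Fundc2 did not pass against WT.

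Of the 8 neighbours of Hook1, Jun and Cyp2j6 rose in both mutant groups, Mysm1 fell in Cd72+/-;Pax5+/-, and the others did not pass against WT. Cyp2j6, a cytochrome P450 of the arachidonate epoxygenase family, read 7.07 to 7.36 in Cd72+/-;Pax5+/-, 8.18 to 8.43 in Pax5+/- and 5.89 to 6.41 in WT. It rose by 1.00 in Cd72+/-;Pax5+/- (SE 0.103, limma adjusted p = 3.93e-05) and by 2.10 in Pax5+/- (limma adjusted p = 5.05e-08), also with the close pairs averaged. Unlike Hook1, it was lower in Cd72+/-;Pax5+/- than in Pax5+/-, by -1.10 (limma adjusted p = 1.44e-05). The genes between them, Cyp2j13, Cyp2j12 and Cyp2j11, differed from WT by -0.01 to 0.15 and did not pass. Jun, a subunit of the AP-1 factor, rose by 0.77 and 0.55 in Cd72+/-;Pax5+/- and Pax5+/-, and Mysm1, a histone H2A deubiquitinase, differed by -0.23 and -0.13. The calls of Jun and Mysm1 ended with the close pairs averaged.

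Around Atrnl1 and Mrgpra1 no neighbour with a cluster of its own moved by as much as 2-fold. Of the 8 neighbours of Atrnl1, Ablim1, an actin-binding LIM protein gene, fell by 0.40 in Cd72+/-;Pax5+/- and by 0.65 in Pax5+/- against WT (limma adjusted p = 0.00491 and 9.31e-05), with calls that ended when the close pairs were averaged. Of the 8 neighbours of Mrgpra1, none passed in Cd72+/-;Pax5+/- against WT. In Pax5+/- against WT the paralogs Mrgpra3 and Mrgpra4 rose, at levels below the array medians. The median difference from WT of the 8 neighbours lay between -0.01 and 0.03 in Cd72+/-;Pax5+/- and between -0.05 and 0.10 in Pax5+/- for the 4 genes, beside 0.0025 and -0.005 over all clusters.

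**Figure D3:**
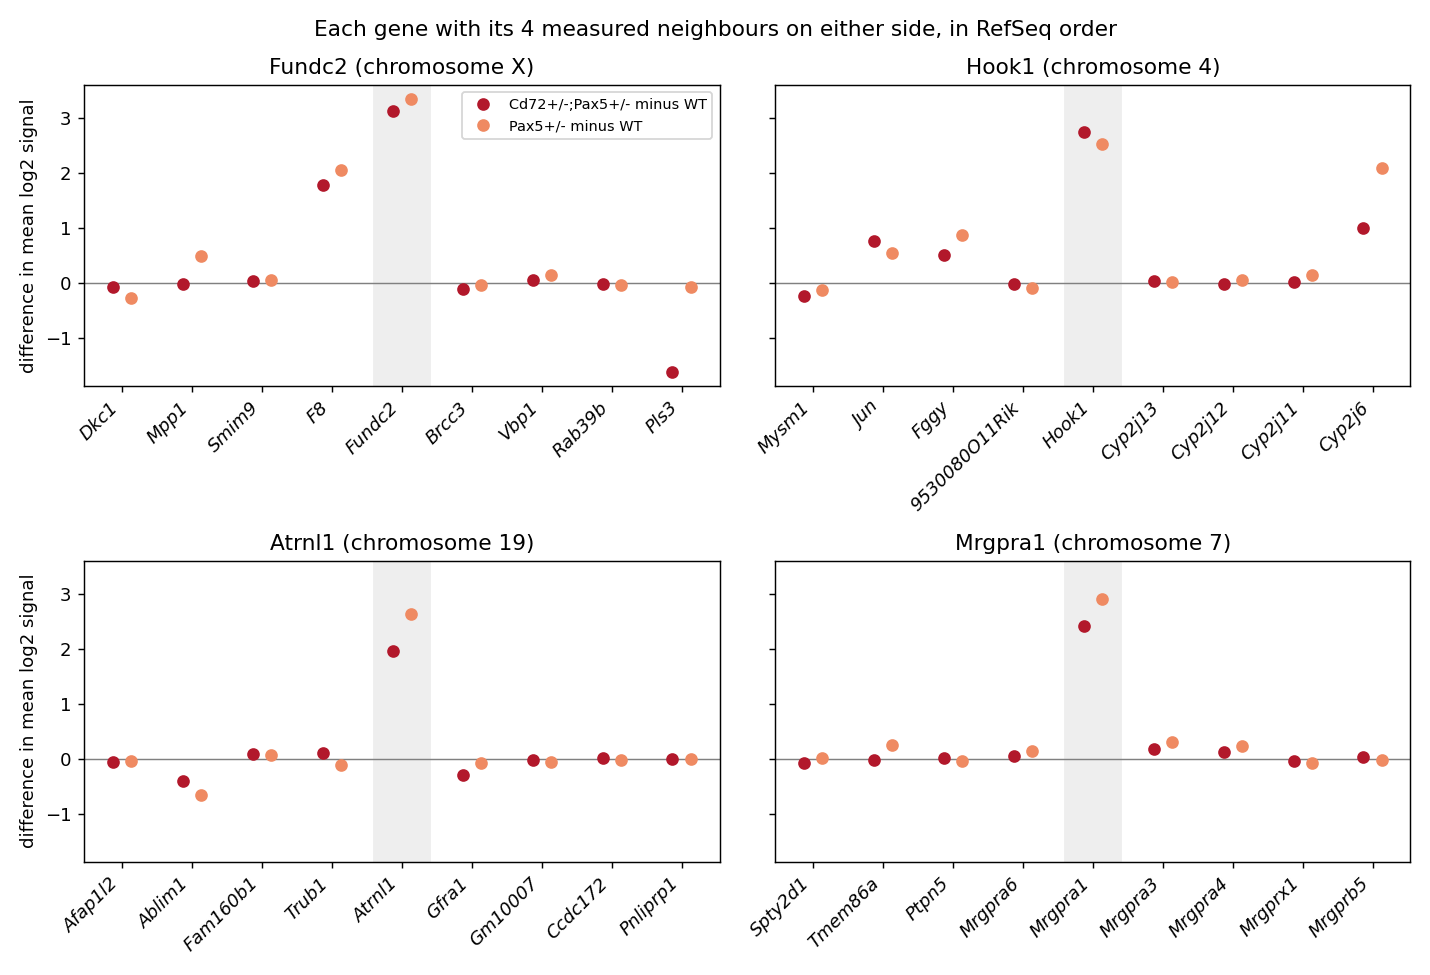
Difference in mean log2 signal from WT (vertical axes) of each of the 4 genes (grey band) and its 4 measured neighbours on each side in RefSeq order, for Cd72+/-;Pax5+/- and Pax5+/-. Beside Fundc2, F8 lies at 1.78 and 2.05, and beyond 3 Cyp2j genes near 0 next to Hook1, Cyp2j6 lies at 1.00 and 2.10.

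The Mas-related receptors were then compared with Mrgpra1, since genes of this family resemble each other and probes may be shared. Of 19 other family members listed, 16 had a cluster of their own. In Pax5+/- against WT 2 rose and none fell, in Cd72+/-;Pax5+/- against WT none rose and 1 fell, and the median differences were -0.00625 and 0.01. Mrgpra3 rose by 0.30 in Pax5+/- (SE 0.052, limma adjusted p = 0.00282) and Mrgpra4 by 0.23 (SE 0.0451, limma adjusted p = 0.0066), and both calls ended with the close pairs averaged. Both genes stayed below the array medians, with means of 5.455 and 5.138 in Pax5+/- and 5.157 and 4.91 in WT. Mrgpre fell by 0.40 in Cd72+/-;Pax5+/- (SE 0.103, limma adjusted p = 0.034), a call that also ended with the close pairs averaged. Mrgprb2, the receptor of mouse mast cells for basic secretagogues, differed from WT by -0.0075 in both groups. No family member passed between the mutant groups.

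Clusters that the platform pairs with several of these genes were read beside Mrgpra1 as a description, since they carry its symbol or those of near relatives, and Mrgpra1 was chosen for its difference from WT. Cluster 10563706, paired with both Mrgprx3-ps and Mrgpra9, read 7.99 to 8.24 in Cd72+/-;Pax5+/-, 8.01 to 8.46 in Pax5+/- and 4.77 to 5.26 in WT. It was higher than WT by 3.11 in Cd72+/-;Pax5+/- and by 3.27 in Pax5+/-. Clusters 10563712 and 10563715, each paired with Mrgpra1, Mrgpra2a, Mrgpra2b, Mrgpra4, Mrgpra6 and Mrgpra9, were higher by 1.35 and 1.29 in Cd72+/-;Pax5+/- and by 1.5 and 1.47 in Pax5+/-. Their signal cannot be assigned to a single gene, and for the same reason the value of Mrgpra1 itself is uncertain where near-identical copies share its probes.

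**Figure D4:**
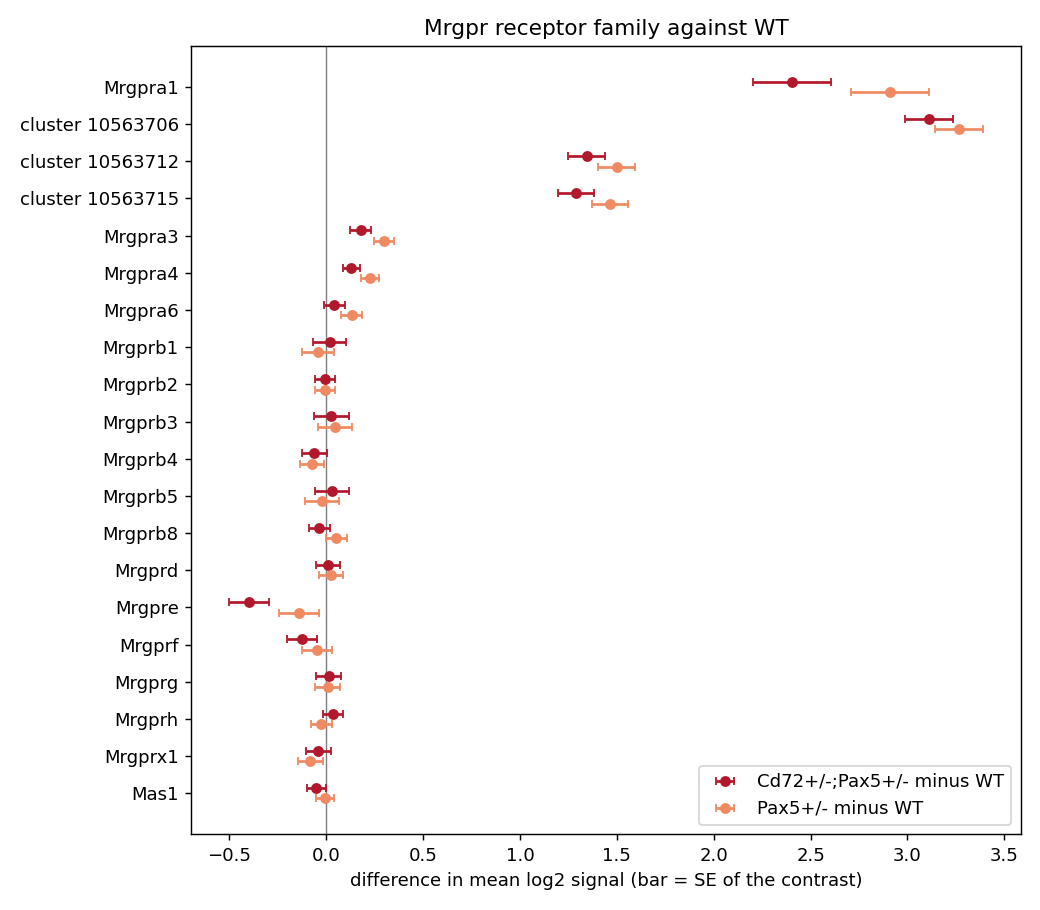
Difference in mean log2 signal from WT (horizontal axis, bars are the SE of the contrast) for Mrgpra1, 3 clusters that the platform pairs with several Mrgpr genes, and 16 family members with clusters of their own, in Cd72+/-;Pax5+/- and Pax5+/-. Mrgpra1 and the 3 shared clusters lie between 1.29 and 3.27, and the family members lie between -0.40 and 0.30.

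Signalling genes below such receptors changed in both directions. Mas-related receptors couple through Gq-type G proteins to phospholipase C beta. Of 13 measured genes of this route, 2 rose and 4 fell in Cd72+/-;Pax5+/- against WT, 2 rose and 4 fell in Pax5+/- against WT, and 3 rose and 2 fell in Cd72+/-;Pax5+/- against Pax5+/-. Over all clusters 7.78%, 7.47% and 9.79% passed in these comparisons, shares that stand beside every list counted here. The median differences were -0.01, -0.11 and 0.09 in that order, beside 0.0025, -0.005 and 0.005 over all clusters. Plcb4, a phospholipase C beta, fell by 0.84 in Cd72+/-;Pax5+/- (SE 0.0635, limma adjusted p = 2.9e-06) and by 0.78 in Pax5+/- against WT. Its signal was low, with means of 5.147, 5.205 and 5.985 in Cd72+/-;Pax5+/-, Pax5+/- and WT, all below the array medians. These calls of Plcb4 held with the close pairs averaged. Prkcb, a protein kinase C, fell by 1.16 in Pax5+/- against WT (SE 0.101), also with the close pairs averaged, and by 0.37 in Cd72+/-;Pax5+/-, where that setting ended the call. Gna15, the G-protein subunit of blood cells, rose by 0.64 in Cd72+/-;Pax5+/- against Pax5+/- (SE 0.0698), also with the close pairs averaged. Prkcd, another protein kinase C, rose by 0.34 in the same comparison, a call that ended in that setting. The genes that fell there were Itpr2, an inositol trisphosphate receptor, by 0.84 (SE 0.143, limma adjusted p = 0.00193), and Plcb2, another phospholipase C beta, by 0.58 (SE 0.124, limma adjusted p = 0.00953). Plcb2 rose by 0.74 in Pax5+/- against WT (limma adjusted p = 0.00216), and these calls of Itpr2 and Plcb2 ended with the close pairs averaged. Plcb3 and Gna11 did not pass in any comparison, with the largest differences at 0.21 and 0.13 in Cd72+/-;Pax5+/- against Pax5+/-.

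Partners of Hook1 were counted next. Of 7 genes of the Hook family and its FHIP complex, none passed in either mutant group against WT, and Hook3 fell in Cd72+/-;Pax5+/- against Pax5+/-, by 0.35 (SE 0.0729, limma adjusted p = 0.00869). Hook2 differed from WT by 0.02 in Cd72+/-;Pax5+/- and by 0.09 in Pax5+/-. Of 20 measured dynein and dynactin genes, 2 rose in Cd72+/-;Pax5+/- against WT, the light chain Dynlt3 by 0.56 and the dynactin subunit Dctn2 by 0.24, and 1 rose in Pax5+/- against WT, Dctn2 by 0.27. Of 11 other dynein adaptors, the centrosomal gene Ninl fell by 0.39 in Cd72+/-;Pax5+/- against WT and by 0.57 against Pax5+/-, where Rilp rose by 0.24. Only the call of Ninl against Pax5+/- held with the close pairs averaged (limma adjusted p = 0.0276).

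Relatives of Fundc2 and Atrnl1 were read in the same way. Fundc1 read 8.53 to 8.84 in Cd72+/-;Pax5+/-, 8.72 to 9.34 in Pax5+/- and 8.44 to 9.08 in WT, and its differences from WT of -0.10 and 0.26 in Cd72+/-;Pax5+/- and Pax5+/- did not pass. Of 23 measured genes of mitophagy, the LC3-family gene Gabarapl1 rose by 0.26 in Cd72+/-;Pax5+/- against WT and the phosphatase Pgam5 fell by 0.26 in Pax5+/- against WT. Between the mutant groups Gabarapl1 rose by 0.27, while the mitophagy receptor gene Bnip3l, Tax1bp1 and Map1lc3b fell by 0.54, 0.53 and 0.43 in Cd72+/-;Pax5+/-. Attractin itself, Atrn, differed from WT by 0.0025 in Cd72+/-;Pax5+/- and by -0.045 in Pax5+/-. Of 11 measured attractin and melanocortin genes, Mgrn1, a ubiquitin ligase that acts with attractin in mouse, rose by 0.42 in Pax5+/- against WT and fell by 0.34 in Cd72+/-;Pax5+/- against Pax5+/-. The melanocortin receptor gene Mc1r read 6.84 to 7.11 in Cd72+/-;Pax5+/-, 6.47 to 6.75 in Pax5+/- and 6.96 to 9.42 in WT, and its differences did not pass. The calls of Gabarapl1, Pgam5, Bnip3l, Tax1bp1, Map1lc3b, Mgrn1, Hook3, Dynlt3 and Dctn2 all ended with the close pairs averaged.

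Genes with the most similar pattern were found by Pearson correlation over the 12 arrays among 1266 genes whose signal ranged over at least 1 log2 unit. These arrays form 3 groups, so the value r describes mostly the group means. F8 was closest to Fundc2 (r = 0.983), followed by Cibar1 (r = 0.981), Hook1 (r = 0.979) and Miga1 (r = 0.977). Siae (r = 0.989), Acp6 (r = 0.989), Ctbp2 (r = 0.988) and Kcnk6 (r = 0.984) were closest to Hook1. Cyp2j9 (r = 0.991), Zfp507 (r = 0.988), Miga1 (r = 0.986) and Cep85l (r = 0.983) were closest to Atrnl1. Mmp13 (r = 0.986), Rbm12b2 (r = 0.984), Mfsd1 (r = 0.983) and Zfp507 (r = 0.979) were closest to Mrgpra1. Cyp2j9, of the same cytochrome family as Cyp2j6, was picked for its likeness to Atrnl1, so the same ladder is no separate result. It read 6.87 to 7.20 in Cd72+/-;Pax5+/-, 7.62 to 7.71 in Pax5+/- and 5.92 to 6.02 in WT.

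Markers of other cells were measured beside these genes. The mean log2 signal of 13 stromal and endothelial markers was 6.76 to 6.89 in Cd72+/-;Pax5+/-, 7.03 to 7.71 in Pax5+/- and 7.18 to 7.69 in WT. Cxcl12 and Sparc fell in Cd72+/-;Pax5+/- against WT, by 1.92 and 1.97, with calls that ended when the close pairs were averaged (limma adjusted p = 0.406 and 0.539). Cxcl12 also differed by -1.58 in Cd72+/-;Pax5+/- against Pax5+/- (limma adjusted p = 0.0328), a call that ended in the same setting (limma adjusted p = 0.467). The part of these markers in the values of the 4 genes was not tested. The mean of 11 neuron and glia markers was 5.96 to 6.11 in Cd72+/-;Pax5+/-, 6.06 to 6.21 in Pax5+/- and 6.20 to 6.32 in WT. Of these 11, Syt1 alone passed, by -1.34 in Cd72+/-;Pax5+/- against WT and by -1.25 against Pax5+/-, with calls that ended when the close pairs were averaged. The median difference of the list from WT was -0.035 in Cd72+/-;Pax5+/- and -0.0375 in Pax5+/-, and its part in the value of Mrgpra1 was not tested. Of 10 mast cell and basophil markers none passed in any of the 3 comparisons. Their mean was 5.61 to 5.70 in Cd72+/-;Pax5+/-, 5.64 to 5.67 in Pax5+/- and 5.63 to 5.69 in WT. The means of T and NK, monocyte and granulocyte, and erythroid and megakaryocyte markers lay between 5.65 and 6.91 on every array. Of these lists, only Nkg7, Cd68 and Tfrc passed. Nkg7 rose by 0.54 in Pax5+/- against WT (limma adjusted p = 0.0249). Between the mutant groups it differed by -0.69, with Pax5+/- higher (limma adjusted p = 0.00433). Cd68 was highest in the other mutant group, by 0.36 against WT and 0.48 against Pax5+/- (limma adjusted p = 0.00884 and 0.000935). Tfrc, at 12.44 in WT, differed by -0.755 in Pax5+/- and -0.985 in the other mutant group (limma adjusted p = 0.0296 and 0.00612). Within the pro-B list of 12 measured markers, 1 rose and 1 fell in each comparison. Dntt, the enzyme that adds nucleotides at heavy-chain joints, differed by -2.34 in Cd72+/-;Pax5+/- against WT and by -2.12 against Pax5+/- (limma adjusted p = 0.00515 and 0.00809). In WT it ranged over 9.76 to 11.93. Ebf1 rose by 0.25 in Cd72+/-;Pax5+/- and by 0.315 in Pax5+/- against WT (limma adjusted p = 0.0326 and 0.00816). Cd79a differed by -0.33 in Pax5+/- against WT and by 0.30 in Cd72+/-;Pax5+/- against Pax5+/- (limma adjusted p = 0.00538 and 0.00867). All these calls of pro-B markers, and those of Nkg7, Cd68 and Tfrc, ended with the close pairs averaged.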

How the data were processed

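Per the labels, TRIzol extracts were cleaned on columns with DNase, labelled with biotin and hybridised to Affymetrix arrays, and the arrays were analysed by the authors with the Transcriptome Analysis Console. The deposited table holds log2 signal values, 1 per transcript cluster and array, in a range of 3.67 to 14.73. How the authors corrected, normalized and summarized the deposited values is not stated in the sources used here. No further normalization or filter was applied. Of 28944 clusters, 21789 carry 1 gene symbol in the platform annotation, 1621 several and 5534 none. RefSeq identifiers matched 19856 of 19938 genes.

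Groups and sample numbers came from the titles. A mean per group was fitted to 23410 clusters with limma 3.58.1 in R 4.3.3 (9 residual and 3.28 prior degrees of freedom), with Benjamini-Hochberg adjustment over all clusters and a threshold of 0.05. The fit was tested on simulated data with independent noise on each array. Such data cannot show how close pairs of arrays affect the p-values. Each SD is over 4 arrays. A gene is represented by its cluster of highest mean. In a list, up to 4 genes that passed and up to 2 that did not were to be named, beside close paralogs. Genes named beyond that were chosen after their values were seen. The 4 genes, the lists and the tests were chosen with earlier results of these data known. Permutation tests used scipy 1.17.1 and figures matplotlib 3.10.9.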

Additional observations from a re-analysis of the deposited data

How the results depend on the processing

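Across 25 alternatives the differences of the 4 genes between the mutant groups kept their direction: Fundc2 -0.37 to -0.07, Hook1 0.16 to 0.28, Atrnl1 -0.72 to -0.63 and Mrgpra1 -0.56 to -0.45. In several of these, such as another threshold, another prior or fewer WT arrays, a difference between the mutant means could not change. Mrgpra1, at -0.505, passed with only the groups compared (limma adjusted p = 0.000832), without WT samples 6 and 8 (0.000277) and without WT samples 5 and 7 (0.000282), in fits that leave out part of the spread of WT. Hook1, at 0.22, passed at an adjusted p under 0.1. With the close pairs averaged, 420 clusters passed in Cd72+/-;Pax5+/- against Pax5+/-, 290 in Cd72+/-;Pax5+/- against WT and 282 in Pax5+/- against WT, where 2292, 1821 and 1749 passed with every array. Array weights gave 2787 in Cd72+/-;Pax5+/- against WT. Without WT samples 6 and 8, 3762 and 3645 passed in Cd72+/-;Pax5+/- against Pax5+/- and against WT. Without WT samples 5 and 7, 3711 passed in Cd72+/-;Pax5+/- against Pax5+/- and 4184 in Pax5+/- against WT. These last settings, chosen after the data were seen, keep a single close pair of WT. Of 200 differences of the 4 genes from WT, 196 moved by less than 1 SD, and the others were those of Mrgpra1 against a single pair of WT arrays. Several settings could not change these differences either, so the count does not measure how stable they are. Of 107 calls of other genes, 41 held with the close pairs averaged. Some of these genes were picked as high in both mutant groups or as similar to the 4 genes. Their calls against WT were therefore likely to hold, and the count does not measure how calls hold in general. Of 1050 list counts compared, 835 stayed equal or within 1.5 times. A mean over the clusters of a gene was not a setting, since each of the 4 genes has 1 cluster with a single gene symbol. The shared clusters that also carry the symbol of Mrgpra1 were not averaged with it. No paired analysis was possible because the titles share no sample number between groups.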
